A study of Homo sapiens with 7 samples.

Results

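Of 149465 PPARα peaks listed on chromosomes 1 to 22 over 6 chromatin immunoprecipitation libraries of HepG2 cells, 16293 had their summit in a gene for a long noncoding RNA (lncRNA) and clear of every protein-coding gene. A peak was taken when its summit, the base of its highest signal, lay inside the span of an lncRNA gene in the RefSeq gene table, outside all protein-coding spans, and more than 3 kb from either end of any protein-coding gene. The rule used position only, so peak heights, local background and presence across libraries had no part in the choice. The PPARa libraries held 2625 such peaks of 23182 and 3846 of 35229. The PPARa+ERa libraries held 2697 of 24145 and 2984 of 27180, and the PPARa+ERb libraries held 1811 of 17032 and 2330 of 22697. Peaks of any libraries that overlapped by 1 bp or more were merged, which gave 9854 regions in lncRNA genes only among 90086 regions in all, and in 9847 of the 9854 every peak met the rule.

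HepG2 is a cell line derived from a human hepatocellular carcinoma, and all 3 groups carried an expression vector for PPARα, received the PPARα agonist WY14643 (written Wy13643 and Wy14643 in the labels) at 10 µM for 2 h from 48 h after transfection, and were precipitated with an antibody to PPARα. The PPARa group had nothing else, the PPARa+ERa group also carried a vector for estrogen receptor α and was exposed for 45 min beforehand to 10 nM PPT, an agonist of that receptor, and the PPARa+ERb group carried a vector for estrogen receptor β and was exposed for 45 min beforehand to 10 nM DPN, an agonist of the β form. Each group had 2 libraries, numbered in order of deposit, and nothing in the labels says that they came from separate cultures, so p-values measure only the spread between these libraries, which may be technical. A sample without antibody and cells without the PPARα vector or agonist were not analysed here, and the labelled cell type cannot be checked against markers in peak lists.

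An lncRNA is a long transcript that is not translated into protein. Many lncRNA genes run antisense to a protein-coding gene, start from a shared promoter in the opposite direction, or host the hairpins of microRNAs. PPARα is a nuclear receptor that responds to fatty acids, pairs with RXR and binds direct repeats of a short core motif, and in liver it switches on genes of fatty acid oxidation. Estrogen receptors bind an inverted repeat of much the same core motif. A peak inside an lncRNA gene marks a place on DNA, not an effect on the RNA.

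A summit that met the rule fell on the start of an lncRNA gene in few places. RefSeq lists 12569 lncRNA starts on 21 of the 22 chromosomes, each with a window from 250 bases before the start to 50 after it. Summits that met the rule lay in 16 of these windows, 22 summits in all. Windows inside or within 3 kb of protein-coding genes stayed in the total, though the rule admits no summit there. Of 17795 lncRNA genes, 5355 lie wholly in such places. Bases before a start are admitted only where an lncRNA gene spans them. The 5 windows with such a summit in 2 or more libraries are shown, as the most often found of the 16. Peaks outside the rule were not counted in them. Each is written 5′ to 3′ on the gene's strand (GRCh38.p14), and capitals mark the nuclear receptor core motif AGGTCA on either strand.
LOC105374492: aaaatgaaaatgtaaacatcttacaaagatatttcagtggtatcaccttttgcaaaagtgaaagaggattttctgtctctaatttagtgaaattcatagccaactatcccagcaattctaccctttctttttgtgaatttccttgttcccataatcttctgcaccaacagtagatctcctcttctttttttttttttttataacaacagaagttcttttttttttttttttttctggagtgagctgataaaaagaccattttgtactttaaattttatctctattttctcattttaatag
LINC01790: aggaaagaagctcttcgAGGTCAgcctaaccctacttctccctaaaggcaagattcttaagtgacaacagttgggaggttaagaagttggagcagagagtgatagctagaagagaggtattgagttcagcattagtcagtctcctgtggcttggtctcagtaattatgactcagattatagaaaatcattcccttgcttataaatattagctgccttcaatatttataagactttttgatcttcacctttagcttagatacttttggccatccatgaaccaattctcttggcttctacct
LINC03064: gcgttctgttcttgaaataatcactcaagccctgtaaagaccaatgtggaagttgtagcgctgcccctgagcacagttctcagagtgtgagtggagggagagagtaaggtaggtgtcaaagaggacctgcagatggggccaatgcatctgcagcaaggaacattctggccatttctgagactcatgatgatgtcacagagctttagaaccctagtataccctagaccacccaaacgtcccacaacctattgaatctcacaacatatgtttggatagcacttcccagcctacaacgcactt
LOC101928850: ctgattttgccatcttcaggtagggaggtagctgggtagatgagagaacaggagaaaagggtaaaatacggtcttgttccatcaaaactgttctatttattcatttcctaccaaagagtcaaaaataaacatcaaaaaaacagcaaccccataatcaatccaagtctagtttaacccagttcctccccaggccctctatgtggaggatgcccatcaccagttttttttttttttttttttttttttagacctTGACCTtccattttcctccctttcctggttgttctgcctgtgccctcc
LOC102724048: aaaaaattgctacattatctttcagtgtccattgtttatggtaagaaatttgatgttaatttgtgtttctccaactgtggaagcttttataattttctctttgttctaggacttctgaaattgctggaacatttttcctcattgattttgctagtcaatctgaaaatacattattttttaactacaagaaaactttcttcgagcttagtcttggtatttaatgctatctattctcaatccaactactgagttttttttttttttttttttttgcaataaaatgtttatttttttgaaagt
The LOC105374492 window (chr4:12563044-12563343, minus strand) held the summits of both PPARa libraries and of PPARa+ERb library 2, between its bases 99 and 118, with folds of 3.22, 2.43 and 2.45. Fold is how far the signal at a summit stood above local background within 1 list, as the authors computed it, and folds of different lists are not on 1 scale. The LINC01790 window (chr2:194730345-194730644, plus strand) held the summits of PPARa library 2 and PPARa+ERb library 2 at its bases 7 to 13, and the region reached into both libraries of both groups, with folds from 2.10 to 2.34. LOC101928850 (chr15:61598264-61598563, plus strand) had summits in PPARa library 1 (fold 4.50) and PPARa+ERb library 1 (fold 5.31) at bases 79 and 80. The other two windows, of LINC03064 (chr16:52606810-52607109, plus strand) and LOC102724048 (chr3:34554985-34555284, plus strand), had summits in both PPARa+ERa libraries and in no other. Their folds were 7.91 and 5.64 for LINC03064 and 3.998 and 5.20 for LOC102724048, on 5 to 10 fragments at the summit. The windows thus divided into those of PPARa and PPARa+ERb and those of PPARa+ERa, with none held by all groups.

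The core motif stood in 3 of the 16 windows with a summit, beside 17.1% of all lncRNA windows and 13.8% of the 35116 windows of all genes, on either strand. A direct repeat of 2 core motifs with 1 base between, AGGTCANAGGTCA, stood in 0 of the 16 and in 0.0228% of all windows. The exact estrogen response element, GGTCANNNTGACC, stood in 0 of the 16 and in 0.057% of all windows, and both of these longer motifs hold the core motif or most of it. A match is a description of the letters and not a bound site, and with 16 windows no share can be compared.

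Several recurrent hosts of microRNAs held member peaks near the hairpin itself, and the mature sequences of the nearest are shown with the seed, bases 2 to 8, in capitals. These are the microRNAs within 1 kb of a summit in the hosts that held peaks in at least 5 libraries, 1 arm of each hairpin, from RefSeq.
hsa-miR-217-5p: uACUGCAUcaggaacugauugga
hsa-miR-100-5p: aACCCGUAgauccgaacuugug
hsa-miR-10526-3p: aAAAGGGGgcugagguggag
hsa-miR-9-5p: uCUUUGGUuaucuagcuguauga
None of the 4 shares its seed with another. The miR-217 arm (chr2:55983020-55983042, minus strand) lay 197 bases from the nearest summit, in a region of MIR217HG (chr2:55982857-55983390) that had a peak in both PPARa libraries (folds 4.21 and 4.68) and both PPARa+ERb libraries (folds 3.397 and 3.14) and in neither PPARa+ERa library. The other three hairpins had a peak of 1 library near them. In MIR100HG it was a PPARa+ERa library 2 peak (fold 4.23), 375 bases from miR-100-5p and 549 bases from miR-10526-3p, and in MIR9-2HG a PPARa+ERb library 1 peak (fold 4.54), 751 bases from miR-9-5p. Only the MIR217HG region was thus found in both libraries of a group.

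The share of peaks in lncRNA genes only was much the same in every library. It was 11.3% and 10.9% in the PPARa libraries, 11.2% and 11.0% in the PPARa+ERa libraries, and 10.6% and 10.3% in the PPARa+ERb libraries. The Wilson 95% intervals of these shares, which cover counting error only, reached from 9.88% for the lowest library to 11.7% for the highest. Both PPARa+ERb libraries lay below the other four, and the PPARa and PPARa+ERa libraries overlapped. The means were 11.1% ± 0.287 (SD, n = 2) for PPARa, 11.1% ± 0.135 for PPARa+ERa and 10.4% ± 0.260 for PPARa+ERb. By exact two-sided permutation over libraries, PPARa+ERa minus PPARa was -0.046 percentage points (p = 1), PPARa+ERb minus PPARa was -0.671 (p = 0.333) and PPARa+ERa minus PPARa+ERb was 0.625 (p = 0.333), where 0.333 is the smallest p that 2 against 2 can give. Over the 3 groups together the exact permutation p was 0.2, and the smallest that 3 groups of 2 allow is 0.0667. The first 2 of these comparisons share the PPARa libraries. Among peaks with a local background of at most 3 times the genome-wide level, both PPARa+ERb minus PPARa (0.41) and PPARa+ERa minus PPARa (0.812) turned positive. The genome-wide level of a list was taken as the lowest local background among its peaks.

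Peaks were set against the length of the genome they come from, assembly gaps included. On that count lncRNA genes held more peaks than stretches with no gene and fewer than the interior of protein-coding genes. The territory that the rule admits was 342 Mb, 11.9% of the 2873 Mb between the first and last genes of the chromosomes, with assembly gaps and unmappable stretches not taken out. Peak density there, relative to that of all chromosomes, was 0.951 and 0.917 with PPARa, 0.938 and 0.922 with PPARa+ERa, and 0.893 and 0.862 with PPARa+ERb. Within each library this was higher than in stretches with no gene, by 0.097 ± 0.0197 on average (SD, n = 6; higher in 6 of 6 libraries). It was lower than in protein-coding genes more than 3 kb from their ends, by a mean difference of -0.287 ± 0.0463 (lower in 6 of 6). The exact two-sided sign-flip permutation p was 0.0312 for each, the smallest that 6 libraries allow, or 0.0375 with Benjamini-Hochberg adjustment over 6 such tests. The libraries share regions and are not fully independent. All 6 were also divided by the same territory lengths, with gaps left in. An error in a length would shift every library the same way, and the p does not cover it. How the gaps divide among the classes was not measured, so the order of the classes holds only for the lengths as counted. The order held in all 3 groups, as the plot of density by class shows.

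**Figure D1:**
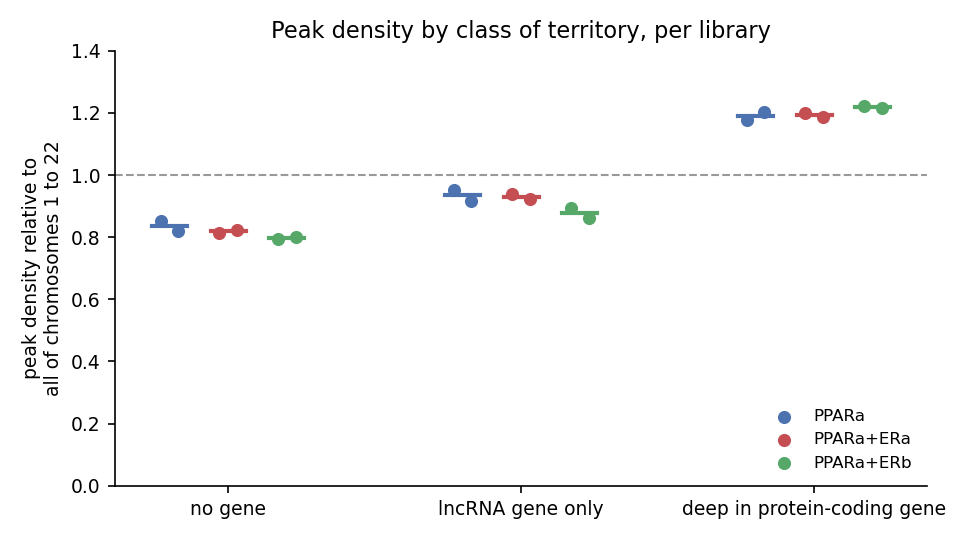
Peak density in stretches with no gene, in lncRNA genes only and deep in protein-coding genes, relative to all of chromosomes 1 to 22 (dashed line at 1); each dot is 1 library and each bar the mean of the 2 libraries of a group. The lncRNA class lies between the other 2 in every library, from 0.862 to 0.951, with assembly gaps left in the lengths.

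Within the admitted territory, peaks were less frequent near the ends of lncRNA genes than its length there would give. Of member summits, 15.2% and 15.6% lay within 3 kb of an end of an lncRNA gene with PPARa, 15.0% and 14.7% with PPARa+ERa, and 16.5% and 16.1% with PPARa+ERb, where 17.8% of the territory does. All 6 libraries were below the territory, by a mean difference of -2.33 percentage points ± 0.67 (SD, n = 6; exact sign-flip permutation p = 0.0312, adjusted 0.0375). Summits within 1 kb of a listed start made up 1.74% to 2.24% of members against 2.48% of territory, again lower in 6 of 6 libraries (mean difference -0.406 ± 0.179, same p). In each comparison with territory, its share is 1 fixed value for all 6 libraries, and the p does not cover an error in that value. The groups did not overlap in the share near an lncRNA end, with PPARa+ERb highest and PPARa+ERa lowest (exact permutation over the 3 groups, p = 0.0667; adjusted 0.162 over 17 measures). The median distance to a protein-coding gene was 102 to 131 kb by library, and 50.4% to 56.3% of member summits lay more than 100 kb from one, beside 56.4% of the territory (lower in 6 of 6 libraries, mean difference -3.403 ± 2.06, exact sign-flip permutation p = 0.0312). At the edge of the rule, lncRNA peaks just outside it, 2 to 3 kb from a protein-coding end, numbered 40, 62, 33, 58, 33 and 45 in the order PPARa, PPARa+ERa, PPARa+ERb, and those just inside, at 3 to 4 kb, numbered 33, 45, 40, 58, 28 and 38.

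The share of lncRNA regions found in both libraries of a group was highest with PPARa and lowest with PPARa+ERa. Of 4525 member regions with a peak in either PPARa library, 1952 (43.1%) had one in both, beside 41.7% of all regions. With PPARa+ERb it was 1061 of 3085 (34.4%), beside 33.7%. With PPARa+ERa it was 944 of 4738 (19.9%), beside 20.7%. The members' shares stood near those of all regions in each group. With peaks of low local background alone, at most 3 times the genome-wide level, the order of the counts turned, to 788 regions in both libraries with PPARa+ERa, 232 with PPARa and 225 with PPARa+ERb. That filter kept 77.3% and 79.5% of PPARa+ERa members, against 15.7% and 11.4% with PPARa and 22.4% and 25.8% with PPARa+ERb. No share over all regions was computed under it, so the filtered counts are not shown to be particular to lncRNA regions. Since most regions did not recur within their own group, absence from a list is not absence of binding.

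Between groups, PPARa and PPARa+ERb shared lncRNA regions and PPARa+ERa stood apart from both. The overlap of 2 lists (regions in both over regions in either) was 0.316 on average over the 4 pairs of a PPARa and a PPARa+ERb library. Within groups it was 0.344 between the 2 PPARa+ERb libraries and 0.431 between the 2 PPARa libraries. It was 0.0161 between PPARa and PPARa+ERa libraries and 0.0315 between PPARa+ERb and PPARa+ERa libraries, where the 2 PPARa+ERa libraries overlapped by 0.199. Regions outside the rule gave nearly the same values, 0.314, 0.0165 and 0.0311. A peak in all 4 libraries compared was found in 18 of 9042 member regions for PPARa with PPARa+ERa (0.199%, beside 0.201% of all regions). It was found in 712 of 5526 for PPARa with PPARa+ERb (12.9%, beside 12.5%) and in 32 of 7466 for PPARa+ERa with PPARa+ERb (0.429%, beside 0.437%).

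A region was counted as differing when both libraries of one group had a peak and neither of the other did, whatever the third group showed. With PPARa+ERa against PPARa, 894 of 9042 member regions (9.89%) were found with PPARa+ERa and not PPARa, and 1863 (20.6%) with PPARa and not PPARa+ERa. The percentages over all regions were 10.2% and 20%. With PPARa+ERb against PPARa, 127 of 5526 (2.30%, beside 2.78% of all regions) were found with PPARa+ERb and not PPARa, and 627 (11.3%, beside 10.3%) with PPARa and not PPARa+ERb. With PPARa+ERa against PPARa+ERb, 853 of 7466 (11.4%, beside 11.6%) were found with PPARa+ERa and not PPARa+ERb, and 940 (12.6%, beside 12.7%) the other way. In each direction the lncRNA regions moved in about the same proportion as all regions, which the plot of differing regions sets side by side. These comparisons share libraries in pairs, and no test was made of single regions. With peaks of low local background alone, the balance turned over in the first comparison, to 752 regions with PPARa+ERa and not PPARa against 181 the other way, and in the third, to 718 with PPARa+ERa and not PPARa+ERb against 147. The second came to 44 with PPARa+ERb and not PPARa against 43. A peak that this filter dropped counted as absent. It dropped most PPARa and PPARa+ERb members and few PPARa+ERa members, so the turn follows from the filter and says nothing of binding. No share over all regions was computed under the filter.

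**Figure D2:**
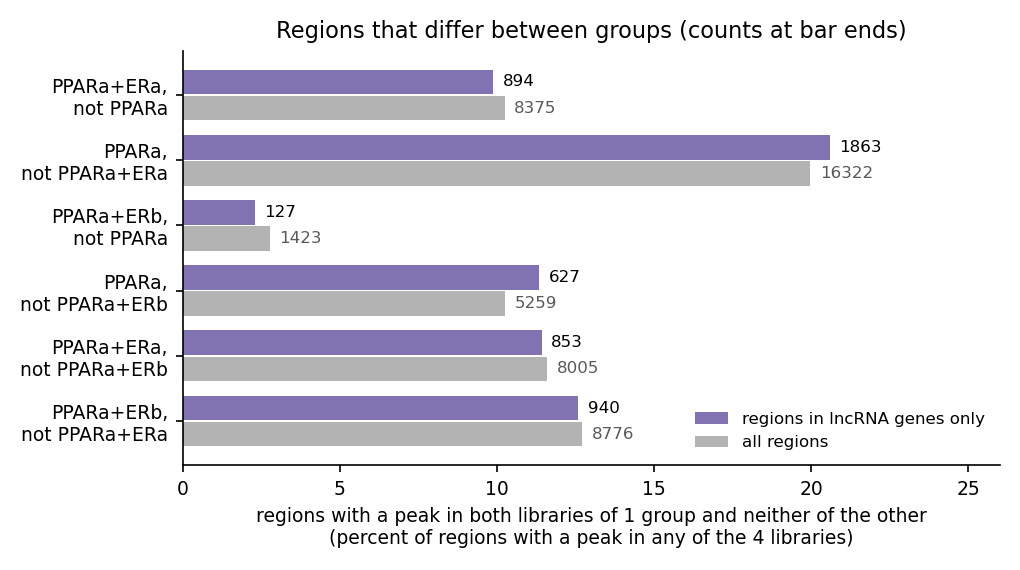
Regions with a peak in both libraries of one group and neither of the other, as a percentage of regions with a peak in any of the 4 libraries compared, for regions in lncRNA genes only (purple) and all regions (grey), with counts at the bar ends. The paired bars are close in all 6 directions, for example 9.89% and 10.2% for PPARa+ERa, not PPARa.

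The peaks behind these counts were built differently in the groups. The median member peak rested on 36 and 52 fragments at its summit in the PPARa libraries, 27 and 30 in the PPARa+ERb libraries, and 9 in each PPARa+ERa library. Median local background, in multiples of the lowest in the list (taken as its genome-wide level), was 13.5 and 16.9 with PPARa, 9.89 and 8.52 with PPARa+ERb, and 1.53 and 1.33 with PPARa+ERa. Low background, at most 3 times genome-wide, was found under 15.7% and 11.4% of PPARa members, 22.4% and 25.8% of PPARa+ERb members, and 77.3% and 79.5% of PPARa+ERa members. The 3 groups did not overlap in any of these measures (exact permutation p = 0.0667 for each, adjusted 0.162 over 17 measures). In this respect the members followed the other peaks of their library. Those had medians of 36 and 51 fragments with PPARa, 27 and 30 with PPARa+ERb, and 10 and 10 with PPARa+ERa. The part of fragment number and background in the difference between PPARa+ERa and the other groups was not tested.

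**Figure D3:**
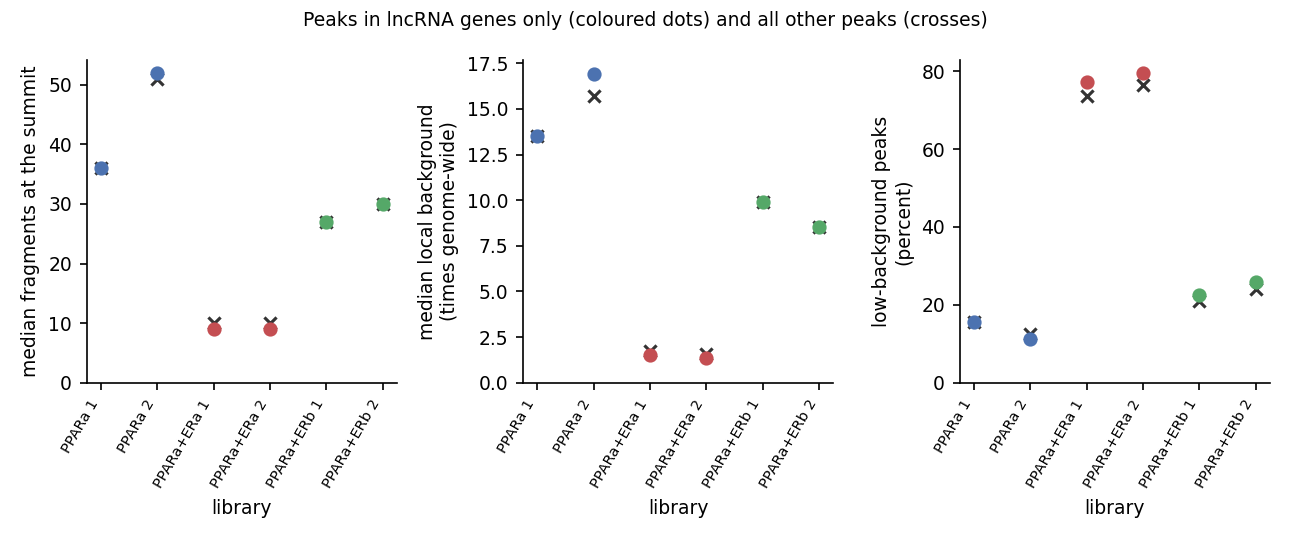
Median fragments at the summit, median local background in multiples of the genome-wide level, and percentage of peaks with local background up to 3 times genome-wide, by library, for peaks in lncRNA genes only (coloured dots) and all other peaks (crosses). PPARa+ERa members rest on 9 fragments against 27 to 52 in the other libraries, and dots and crosses nearly coincide.

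Peaks of different libraries in 1 lncRNA region had their summits at nearly the same place. Over 9991 pairs of libraries with a peak in the same member region, 35.6% had the summit at the same base and 77.9% within 10 bp. Exactly 1 of the 2 peak edges was at the same base in 81.3% of these pairs, and both edges in 2.66%. Pairs from different groups shared the summit base no less often than pairs of one group, in 39.1% against 30.3% of pairs. Other regions gave like values, with the same summit base in 34.7% and exactly 1 shared edge in 80.1% of 81566 pairs. How the lists came to share bases was not tested. A shared summit base in the regions named here is a description and not a measure of repeated binding.

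A peak in all 6 libraries was found in 12 regions, 0.122% of member regions beside 0.135% of all regions. The region in LINC01428 (chr20:7212398-7212896) ranked first by the rule for named regions, with folds of 18.8 and 23.1 with PPARa, 7.19 and 9.86 with PPARa+ERa, and 20.4 and 23.5 with PPARa+ERb. Its summit was at the same base in all 6 lists, and it lay 432 kb from the nearest protein-coding gene, BMP2, which encodes a bone morphogenetic protein. LINC02531 (chr6:92632060-92632569) had folds of 23.9, 29.8, 5.04, 6.34, 16.4 and 17.0 in the same order, and its background was at the genome-wide level in every list. LINC01707 (chr1:69056688-69057162) had folds of 22.7, 22.1, 5.76, 5.64, 17.7 and 14.6. These 3 were strong peaks in the PPARa and PPARa+ERb lists. In each PPARa+ERa list the median member peak rested on 9 fragments. There LINC01428 had 9 and 13 fragments, LINC02531 had 6 and 8, and LINC01707 had 7 and 7. Their percentiles of −log10 q within those lists, counted from the weakest peak up, were 73.4 and 92.9, 33.7 and 57.9, and 48.8 and 44.9.

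LOC105378003 (chr6:130753723-130754233) had folds of 16.8, 14.04, 5.50, 6.74, 16.3 and 10.6 and 1 summit base in every list. AGA-DT (chr4:177618194-177618581), the divergent transcript of the gene for aspartylglucosaminidase, a lysosomal enzyme, had folds of 11.96, 8.35, 7.19, 7.75, 11.4 and 9.95. The summits of PITX1-AS1 (chr5:135232779-135233238) and CALCRL-AS1 (chr2:187116521-187117034) also fell on a single base in all lists. PITX1-AS1 is named for PITX1, a developmental transcription factor, and CALCRL-AS1 for CALCRL, the receptor for calcitonin gene-related peptide. The other 5 were LOC105375482, LOC105373667, LINC02882, CFAP418-AS1 and LINC02930, with folds from 2.85 in LINC02930 to 19.9 in LINC02882. Folds of one region in different lists are not comparable, so the lower PPARa+ERa values in the plot of the 12 regions say nothing of weaker binding.

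**Figure D4:**
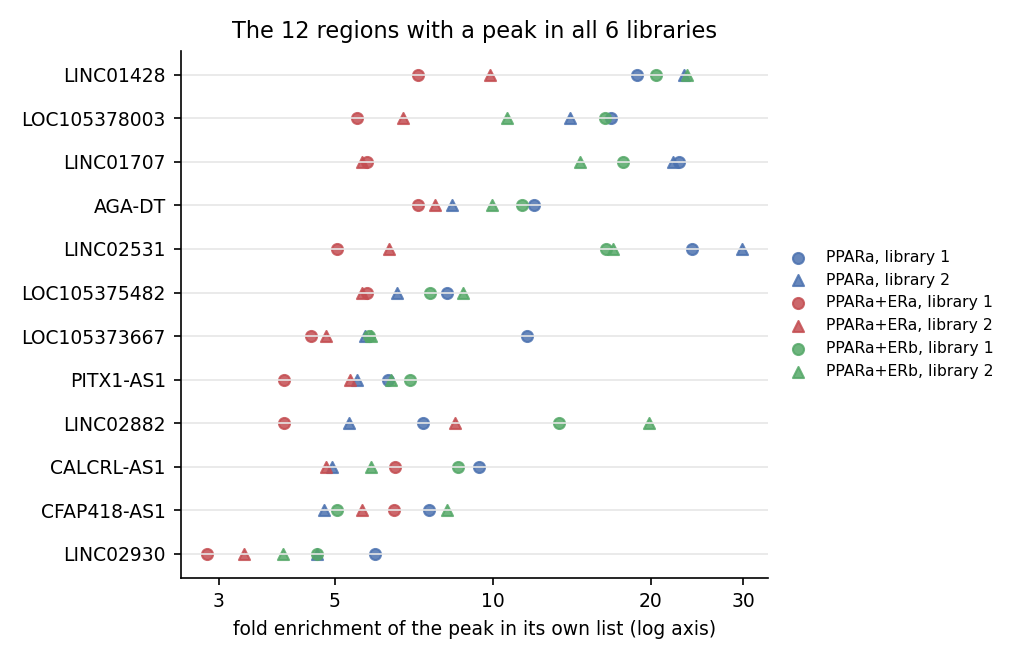
Fold enrichment (log axis) in each of the 6 peak lists for the 12 regions in lncRNA genes with a peak in every library; circles are library 1 and triangles library 2 of a group. The LINC01428 region spans 7.19 to 23.5; folds are relative to the local background of each list and are not on 1 scale.

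Most member regions were found once. Of the 9854, 5968 had a peak in 1 library, 2198 in 2, 897 in 3, 717 in 4 and 62 in 5. By gene, 4340 of the 12440 lncRNA genes with some admitted territory (34.9%) held a member peak in at least 1 library, 350 (2.81%) held one in all 6, and 1539 in just 1. A gene found in all 6 libraries seldom had 1 site found in all 6. Of the 350 genes, 12 had 1 region present in all 6 libraries, and in 78 the most widely found region was present in 3 libraries or fewer. In the rest, which were most of the 350, it was present in 4 or 5.

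Whether a gene recurred went with its length. Of genes with up to 5 kb clear of protein-coding genes, 6.996% held a member peak, of those with 5 to 20 kb 27.2%, of those with 20 to 100 kb 64.7%, and of those with over 100 kb 96.0%. A peak in all 6 libraries was held by 33.7% of the longest class and by 0% of the shortest. The number of regions per 100 kb was nearly flat over these classes, at 2.95, 3.13, 2.94 and 2.76. Across genes, clear length and number of regions had Pearson r = 0.848 and Spearman rho = 0.616 (n = 12440 genes, which share libraries and often overlap, so no p is given). The plot by clear length shows both sides, a rising share of genes and a level density.

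**Figure D5:**
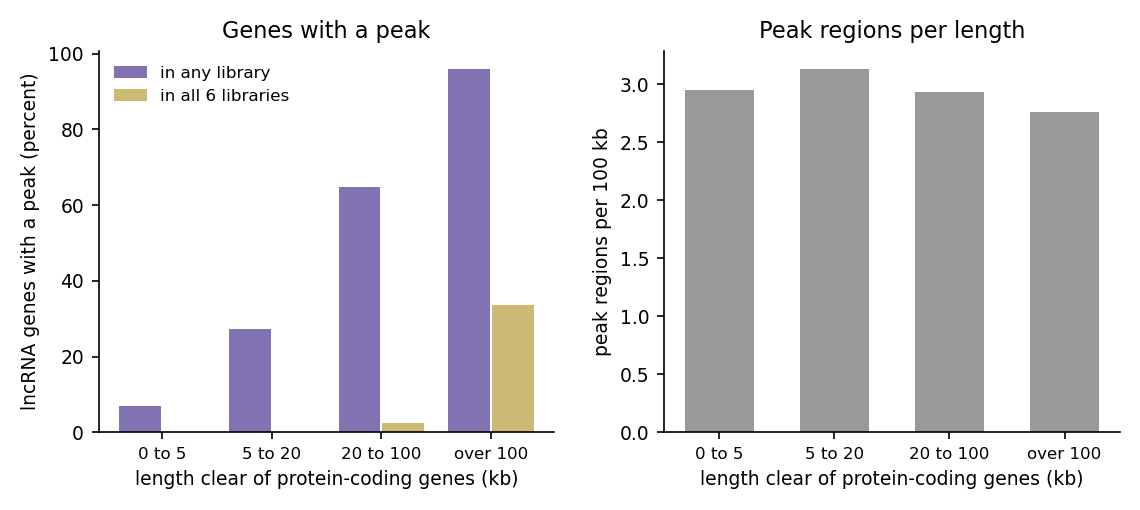
Left, percentage of lncRNA genes with a member peak in any library (purple) and in all 6 libraries (yellow); right, member regions per 100 kb; both by the length of the gene that lies clear of protein-coding genes. The share with a peak goes from 6.996% to 96.0% while the density stays between 2.76 and 3.13 per 100 kb.

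Genes with many regions were accordingly long. SOX2-OT, which overlaps the gene of the stem cell factor SOX2, held 33 regions over 677 kb, 4.87 per 100 kb. Its peaks numbered 8 and 11 with PPARa, 12 and 9 with PPARa+ERa, and 5 and 6 with PPARa+ERb. LINC01572 held 30 (7.81), CASC15, a gene at a neuroblastoma susceptibility locus, 27 (5.13), and LINC01317 27 (4.57). In neither SOX2-OT nor CASC15 did a region reach more than 4 libraries. LINC03000 leaned to PPARa, with 16 and 16 peaks against 4 and 4 with PPARa+ERa and 9 and 9 with PPARa+ERb. LOC105372666 on chromosome 20 leaned the other way, with 1 and 3 peaks with PPARa, 16 and 12 with PPARa+ERa, and 0 and 2 with PPARa+ERb.

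Relative to length, the densest genes of at least 20 kb were LINC02951 with 22.4 regions per 100 kb, PPP3R1-AS1 with 19.5, LOC105371814 with 18.6, LOC105370500 with 18.4 and LINC02281 with 16.6, against 2.88 over all lncRNA genes. These rest on 4 to 11 regions each. PPP3R1-AS1, antisense to the gene of a calcineurin subunit, had 2, 2, 2, 2, 1 and 2 peaks over the 6 libraries. LINC02951 had 2, 3, 1, 2, 1 and 1.

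Among regions found with PPARa+ERa and not with PPARa, the 8 named by rank within the lists were also absent from both PPARa+ERb lists. The strongest stood in LOC105371382 (chr16:85159616-85160058), 9.58 kb from GSE1, with folds of 18.98 and 17.8 and 37 and 36 fragments. LOC105374528 (chr4:23768644-23769009), 23.2 kb from PPARGC1A, the gene of the coactivator PGC-1α that works with PPARα, had folds of 12.95 and 14.1 at 1 summit base. CCN2-AS1 (chr6:131970794-131971234), 19.6 kb from CCN2, the gene of connective tissue growth factor, had folds of 9.66 and 11.1. LINC00607 (chr2:215834080-215834815) had 12.4 and 11.9, and EML4-AS1 (chr2:42160033-42160424) had 11.3 and 10.8. AHI1-DT (chr6:135572766-135573180) had 11.8 and 17.5. The other two, in LOC102724146 and in the overlap of LUADT1 and STXBP5-AS1, had folds from 11.5 to 14.9. In 6 of the 8 regions the 2 lists placed the summit on the same base. Over all 894 such regions the median peak rested on 10 fragments in each library, and local background was low under 85.1% and 84.8% of them. Of the 944 member regions with a peak in both PPARa+ERa libraries, 842 had none in the other groups (89.2%, beside 89.8% of all regions).

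The 8 regions named as present with PPARa and absent with PPARa+ERa all had a peak in both PPARa+ERb libraries as well. They are the top ranks of 1863. Only 712 member regions had a peak in both PPARa and both PPARa+ERb libraries, so most of the 1863 lacked this. Of the 1952 member regions with a peak in both PPARa libraries, 619 had none in the other groups (31.7%, beside 30.3% of all regions). LINC01934 (chr2:181127696-181128141) had folds of 13.5 and 13.6 with PPARa and 7.20 and 8.14 with PPARa+ERb. LOC124907774 (chr2:64061678-64062046), 30.7 kb from PELI1, the gene of a ubiquitin ligase of innate immune signalling, had 8.49, 10.3, 6.51 and 5.81. LOC105375468 (chr7:117466282-117466730), 13.6 kb from CFTR, the chloride channel gene of cystic fibrosis, had 6.55, 7.48, 4.07 and 3.45. The 8 regions named as present with PPARa+ERb and absent with PPARa+ERa, the top ranks of 940, likewise had a peak in both PPARa libraries. Of the 1061 member regions with a peak in both PPARa+ERb libraries, 99 had none in the other groups (9.33%, beside 11.1% of all regions). LMCD1-AS1 (chr3:8270791-8271350) had 16.7 and 16.8 with PPARa and 11.4 and 11.1 with PPARa+ERb at 1 summit base, and LOC124909495 (chr3:147693441-147693917) had 15.1, 18.2, 25.0 and 16.9.

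Regions that set PPARa and PPARa+ERb apart were fewer and ranked lower. With PPARa+ERb and not PPARa, ARHGEF26-AS1 (chr3:154116472-154116794) had folds of 6.76 and 6.96 at 1 summit base, and MYLK-AS1 (chr3:123603975-123604402), antisense to the gene of smooth muscle myosin light chain kinase, had 4.31 and 5.73. LOC105374910 (chr6:8203511-8204070) had 11.3 and 9.90 there and a peak in both PPARa+ERa lists as well (5.01 and 4.91). With PPARa and not PPARa+ERb, STEAP2-AS1 (chr7:89979192-89979521) had 6.38 and 6.44, and the region of LINC01228 and LINC01229 (chr16:79797678-79798064), 197 kb from MAF, had 7.68 and 11.8. The 127 regions with PPARa+ERb and not PPARa rested on a median of 20 and 23 fragments, and the 627 with PPARa and not PPARa+ERb on 44 and 59.

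Known lncRNAs of liver and hepatoma held member peaks about as often as lncRNA genes in general. Of 34 listed, 31 were in the gene table, 26 had admitted territory and 10 of these (38.5%, beside 34.9% of all lncRNA genes) held a peak in any library, at 2.94 regions per 100 kb (2.88 over all). LINC00907 held 15 regions over 505 kb and was the only one with a peak in all 6 libraries. LINC00261, which neighbours the gene of the endoderm and liver factor FOXA2, had a region (chr20:22563408-22563851) with folds of 3.43 and 5.47 in the PPARa libraries and 2.81 in PPARa+ERb library 1, and another of PPARa+ERa library 1 alone. LINC01554 had 1 region (chr5:95856710-95857047) found in the PPARa libraries alone, with folds of 2.88 and 2.99. CYP4A22-AS1, which lies at a cluster of fatty acid hydroxylase genes known as PPARα targets, had a peak in PPARa library 1 alone (chr1:47164608-47164923, fold 2.25), and was singled out after its values were seen. HULC, a transcript highly upregulated in liver cancer, MIR122HG, the host of the liver microRNA miR-122, and LINC01093 had admitted territory of 1.59, 5.02 and 6.46 kb and no member peak. Longer genes of the list also lacked one, among them LINC02027, LINC01116 and HPN-AS1, with 102, 26.2 and 18.4 kb. HNF4A-AS1 had no territory outside the 3 kb margin and could not hold one.

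Of 51 listed lncRNAs of cancer, 48 were in the table, 42 had territory and 20 (47.6%, beside 34.9% of all lncRNA genes) held a peak, at 3.76 regions per 100 kb (2.88 over all). The median clear length of this list was 14.7 kb, against 9.97 kb over all lncRNA genes. PVT1, a neighbour of MYC that is often amplified with it, held 9 regions, with 2 and 5 peaks with PPARa, 3 and 3 with PPARa+ERa, and 1 and 3 with PPARa+ERb. LINC-PINT, an RNA induced by p53, held 15 regions, of which the most widely found (chr7:130892470-130892886) had folds of 15.96 and 15.5 with PPARa, 7.70 in PPARa+ERa library 2, and 16.3 and 17.2 with PPARa+ERb. NEAT1, the RNA that builds nuclear paraspeckles, was found in another combination of groups. Its region at chr11:65436907-65437370 had folds of 6.14 and 3.41 with PPARa and 6.99 and 8.66 with PPARa+ERa and no peak with PPARa+ERb, and it was singled out after its values were seen. DLEU1, in a segment of chromosome 13 that is lost in chronic lymphocytic leukaemia, held 11 regions, with 1 and 2 peaks with PPARa, 6 and 5 with PPARa+ERa, and 3 and 1 with PPARa+ERb. MALAT1 and MEG3 had 8.78 and 34.9 kb of territory and no member peak.

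Of the 17 imprinted and dosage lncRNAs listed, 15 were in the table and 8 had territory. Of these MEG8 and SNHG14 (25%, beside 34.9% of all lncRNA genes) held peaks, both in all 6 libraries. In MEG8, of the imprinted cluster that also holds MEG3, 1 region (chr14:100918017-100918528) had folds of 3.69 and 4.77 with PPARa and 5.30 and 4.17 with PPARa+ERb, and another (chr14:100960175-100960520) had 8.69 and 7.24 with PPARa+ERa. SNHG14, the host of small nucleolar RNAs in the Prader-Willi region, held 10 regions, of which 2 had a peak in both PPARa and both PPARa+ERb libraries and 1 in both PPARa+ERa libraries. The presence of such genes in all 6 lists thus came from different sites.

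MicroRNA host genes held a peak in 37 of 67 with territory (55.2%), and small nucleolar RNA host genes in 4 of 18 (22.2%), beside 34.9% of all lncRNA genes. MicroRNA hosts were long as a group, with a median of 22.2 kb of clear territory against 9.97 kb over all lncRNA genes, and their density was 2.72 regions per 100 kb. Small nucleolar RNA hosts were short, with a median of 4.44 kb, and their density was 3.41, beside 2.88 over all lncRNA genes. MIR99AHG, which carries miR-99a, let-7c and miR-125b, held 20 regions over 561 kb, with 6, 8, 7, 4, 5 and 5 peaks by library. MIR3171HG leaned to PPARa+ERa, with 9 and 10 peaks against 1 and 3 with PPARa and 2 and 1 with PPARa+ERb. By name, and beside the same 34.9%, a peak was held by 334 of 729 antisense lncRNAs (45.8%, 3.25 regions per 100 kb), 173 of 389 divergent ones (44.5%, 3.402), 891 of 2170 LINC genes (41.1%, 2.77) and 2734 of 8545 genes known by a LOC number (32.0%, 2.86). The densities of these 4 name classes ran from 2.77 to 3.402 around the 2.88 of all lncRNA genes, and no test was made between the lists.

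The chromosomes of which HepG2 cells are known to carry extra copies, 2, 14, 16, 17 and 20, held 23.1% and 22.4% of members with PPARa, 28.4% and 27.9% with PPARa+ERa, and 23.2% and 24.1% with PPARa+ERb, where 19.8% of the territory lies. All libraries were above the territory and the PPARa+ERa libraries were highest, 5.38 percentage points above PPARa in the mean (exact permutation p = 0.333, and 0.0667 over the 3 groups). Peaks outside the rule showed the same order, with 24.5%, 23.7%, 28.5%, 27.6%, 25.5% and 25.6%. On chromosome 20 the density of members relative to all the territory was 1.94 and 1.63 with PPARa+ERa, 1.07 and 1.14 with PPARa, and 1.30 and 1.16 with PPARa+ERb. On chromosome 2 it was 1.45 and 1.46 with PPARa+ERa against 1.12 to 1.25 in the other libraries, and on chromosome 16 it was 1.48 and 1.25 against 0.968 to 1.13. The groups overlapped on chromosome 14, with 1.27 and 1.37 with PPARa+ERa against 1.15 to 1.34 in the other libraries. They also overlapped on chromosome 17, with 1.17 and 1.21 against 0.822 to 1.52. Copy number was not measured here, and its part in these densities was not tested.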

How the data were processed

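Chromatin immunoprecipitation with a PPARα antibody was analysed from 6 deposited peak lists, 2 for each of 3 groups of HepG2 cells; 1 further sample had no peak list in use here. Per the submitters' processing notes, MACS2 2.2.7.1 was among the tools, beside DiffBind 2.16, HOMER 4.11 and Bowtie 1.0.1, and so were ChIPseeker 1.18.0 and Trim Galore 0.6.4, with builds hg38 and GRCh38.p13 and no role or order stated. The lists were deposited per library, so peaks are those of each library alone, and the control used in calling is not given in the sources used here. In each deposited list the authors give a fold (ratio) over local background, −log10 p-values and −log10 q-values at the summit, and a whole-number score, which was not used. Depth in reads was not given in the files used, and the number of peaks and the fragments at a summit are the measures of it here.

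Each summit was set against lncRNA and protein-coding gene spans of a RefSeq table (GRCh38.p14), whose primary chromosomes share coordinates with hg38. Spans carry no exons, and the X chromosome was left out by the rule. Assembly gaps and mappability were not taken out of territory. Fragments and local background at each summit were solved for from each summit's fold and p-value as deposited, with −log10 p matched to within 0.001 for 100% of peaks. The lowest local background solved for in a list stood for its genome-wide level, which was not itself measured. Peaks overlapping by at least 1 bp were merged into regions. Groups were compared by exact permutation over libraries, with Benjamini-Hochberg adjustment, in Python 3.11.15 with SciPy 1.17.1, NumPy 2.4.6 and pandas 2.3.3 (figures in Matplotlib 3.10.9), and the steps were tested on simulated data. The alternatives tried were margins of 0 and 10 kb, a −log10 q of at least 3, low-background peaks, lists of equal length, no LOC genes, summits within 150 bp, the X chromosome, and leaving out each library.

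Members and lists were chosen with earlier results of these data known. Named were up to 12 regions in most libraries, up to 8 differing regions in each direction ranked by the lower of their within-list percentiles of −log10 q, the 10 genes with most regions, the 10 with most per 100 kb among spans of at least 20 kb, and up to 6 members of each list in most libraries. The examples given within these sets, and genes without a peak such as MALAT1 and HULC, were picked after their values were seen. One gene that the rule names is not reported here.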

Additional observations from a re-analysis of the deposited data

How the results depend on the processing

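No paired analysis was possible because the replicate numbers follow the order of deposit and pair no libraries across groups. With −log10 q of at least 3 all 16 results kept their direction, and none moved by more than the spread between libraries or, for counts, 1.5 times (PPARa+ERa minus PPARa in share went from -0.046 to -0.119 percentage points). So did 15 of 16 with the X chromosome, and the 9 counts of regions with summits within 150 bp or with every peak of a region required to meet the rule. Shares of peaks in lncRNA genes only were 10.1% (PPARa), 10.2% (PPARa+ERa) and 9.46% (PPARa+ERb) with a margin of 10 kb, 11.6%, 11.7% and 11.1% with 0 kb, 10.7%, 11.5% and 11.1% with low-background peaks, and 4.79%, 4.99% and 4.62% without LOC genes. The share of PPARa+ERa minus PPARa, -0.046 percentage points, became 0.0314 with 10 kb, 0.106 with 0 kb, 0.812 with low-background peaks, 0.196 without LOC genes, 0.0414 with X and -0.399 with lists of equal length, and ran from -0.249 to 0.157 on leaving out 1 library, turning positive without PPARa library 1 (0.157) or PPARa+ERa library 2 (0.0497). PPARa+ERb minus PPARa became 0.41 with low-background peaks and -0.174 without LOC genes, and ran from -0.874 to -0.468. PPARa+ERa minus PPARa+ERb ran from 0.441 to 0.809.

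With lists of equal length, regions in both libraries numbered 1102 (PPARa) and 609 (PPARa+ERa), and differing regions 592 (PPARa+ERa, not PPARa), 1079 (PPARa, not PPARa+ERa), 198 (PPARa+ERb, not PPARa), 324 (PPARa, not PPARa+ERb) and 558 (PPARa+ERa, not PPARa+ERb), with 215 genes in every library. With low-background peaks, regions in both numbered 232 (PPARa), 788 (PPARa+ERa) and 225 (PPARa+ERb), and differing regions 752 (PPARa+ERa, not PPARa), 181 (PPARa, not PPARa+ERa), 44 (PPARa+ERb, not PPARa), 43 (PPARa, not PPARa+ERb), 718 (PPARa+ERa, not PPARa+ERb) and 147 (PPARa+ERb, not PPARa+ERa), with 64 genes. Without LOC genes, by construction of a smaller set, regions in both numbered 841, 446 and 478, differing regions 424, 804, 56, 257, 397 and 427 in the order of the text, and genes 170. No shares over all regions were computed for these counts, and a peak that a filter dropped counted as absent. Leaving out 1 library raised counts by construction, since the remaining library of its group then sufficed. Regions in both ran from 1950 to 3848, 944 to 2984 and 1061 to 2331, differing regions from 894 to 2845, 1861 to 3709, 127 to 654, 627 to 2063, 853 to 2754 and 940 to 2061, and genes from 365 to 453. With 2 libraries a group, no comparison between 2 groups can reach an exact p below 0.333, and a median of 9 fragments limits the PPARa+ERa peaks.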
